A study of Danio rerio with 11 samples.

Results

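Among the genes by which cells move bicarbonate, protons and chloride, slc4a4a, a sodium bicarbonate cotransporter gene, stood 1.92-fold higher in the irradiated gut at 28.5 °C and 2.72-fold lower in the cooled, melatonin-treated gut. In the gut that received both treatments it was 1.75-fold lower. The genes described are the zebrafish bicarbonate and acid-base ion transporters slc4a4a, slc4a4b, slc4a2a, slc4a2b, slc26a6 and cftr. They were chosen by symbol from general knowledge of the family and with earlier results of these data in view, so their values are a description and not independent evidence. Of 7 genes on the list, 1 is not reported here, and the other 6 were found among the 32520 genes of the largest table and 5 in all 3 tables, which share 19071 genes. The gene slc26a6 (ENSDARG00000097292) was found in 1 table, through a separate table of gene names.

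Bicarbonate leaves gut and pancreatic duct cells of mammals by a chain of transporters. It is taken up with sodium at the basolateral membrane by SLC4A4 and then passes the apical membrane through SLC26 exchangers and CFTR, a chloride channel opened by cAMP signalling that also conducts bicarbonate. The SLC4A2 protein works on cell pH instead, by exchanging bicarbonate for chloride. In marine fish, bicarbonate secretion by the gut is known for its part in drinking and salt balance.

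RNA of the gastrointestinal tract (GIT) was sequenced from adult zebrafish of the AB strain, a laboratory wild-type line. The control, 28.5-Ctrl (2 samples), was kept at 28.5 °C with neither melatonin nor radiation. The torpor group, 18.5-mel (2 samples), was brought stepwise to 18.5 °C and given 24 µM melatonin, a hormone that lowers locomotion. The radiation group, 28.5-rad (3 samples), received 32.64 cGy of gamma rays by its labels, and the fish of 18.5-mel-rad (4 samples) received cold, melatonin and that dose. Cooling and melatonin were always given together and irradiated fish were also anaesthetised, so the members of each of these pairs cannot be told apart. No label says whether a sample is 1 fish, and reads came from more than 1 sequencing site and instrument without a label that says which library came from which. The 18.5-mel samples have titles of another form than the rest, so that form cannot be told apart from their treatment. Titles of the rest hold an F or an M that no label explains. Both controls have an F, while each irradiated group has both letters. Whether any value below moved with a site, a form of title or a letter was not tested.

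The authors deposited a DESeq2 results table for each treated group against 28.5-Ctrl. It gives a gene's mean of normalized counts over all libraries of the fit (mean expression), its log2 fold change, the standard error (SE), a Wald p-value and an adjusted p-value (q). Values per sample were not analysed here, so each value below is a fitted estimate with its SE or with a 95% normal interval made from it. A gene is called DE where q is at most 0.1 and the log2 fold change is 0.58 or more in size. At these thresholds the table of 18.5-mel has 20117 genes with a q, of which 21.3% were raised and 15.8% lowered. In the table of 28.5-rad 1.34% of 6844 genes were raised and 0.599% lowered, and in that of 18.5-mel-rad 6.06% of 12675 were raised and 5.68% lowered. Mean expression is not scaled for gene length and shows how well a gene was read, not its abundance against another gene.

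Some libraries stood apart. Genes read in a single library show what 1 read adds to the mean expression. This was 0.34 and 1.2 normalized counts in the 18.5-mel libraries, against 0.0478 and 0.0543 for the control libraries in the same fit. The genes read once in those control libraries alone had log2 fold changes of 2.23 and 2.13 in 18.5-mel, a rise without a read in that group. Genes of low mean expression are limited most by so few reads. In the fit of 18.5-mel-rad, all 75 genes read once in a certain library of the 28.5-rad fit had 2.1 times their former mean expression, whereas the genes read once in 10 other libraries had 1.05 times theirs. The log2 fold change of these 75 genes in 18.5-mel-rad was 1.0, against 0.39 for genes read once in another library of the group. All 26 genes read once in a further library had a mean expression of 0. Such values arise where 1 of the 18.5-mel-rad libraries is entered 2 times and another is left out, so the table of 18.5-mel-rad appears to rest on 3 separate libraries in 4 columns. The SE of each 18.5-mel-rad value below would then be too small. With equal spread assumed it would be 1.08 times as large, a factor that does not allow for the spread being underestimated as well. Genes read once in some of the 10 libraries had a log2 fold change of 0 in both irradiated fits. Those fits thus appear to hold libraries of groups not described here, which also enter the mean expression.

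The tissue label was checked against markers. Of 12 enterocyte markers all 12 were listed, with mean expression up to 40130 normalized counts in the 18.5-mel table (chia.2) and 7932 for vil1, which builds the microvilli of absorptive cells. The digestive enzyme genes of the exocrine pancreas were also well read, with prss59.1 at 54275, and liver genes were present, with tfa at 4217. The libraries thus hold pancreas and liver RNA beside gut. Of the 15 pancreas genes in the 28.5-rad table, 15 had a negative log2 fold change, with a median of -0.93. The liver list ran from -3.05 to -0.02 there with no gene DE. Its median was -2.60 in 28.5-rad, -2.42 in 18.5-mel and -2.30 in 18.5-mel-rad, with no positive estimate in any comparison. In 18.5-mel 2 of 12 liver genes were DE lowered and in 18.5-mel-rad 1 of 10, against 15.8% and 5.68% of all genes. The gene a1cf was DE in both and was the one at -0.02 in 28.5-rad. Its SE in 18.5-mel was 0.28, against 1.73 for tfa, the other DE gene there, so a1cf varied unlike the rest of the list. The part of liver RNA in the values below was not tested. Fewer cells of a type and less RNA per cell cannot be told apart in such bulk RNA. Ionocytes are the ion-transporting cells of fish skin and gill, and their list held 7 genes. The defining gene foxi3b was listed at 0 in every table, while atp6v1aa, a proton pump subunit gene that other cells also use, was read at 45.3 to 75.6 normalized counts. In 18.5-mel 3 of the ionocyte genes had a q, of which 1 was raised, slc12a10.2, and 0 lowered, and foxi1 stood at 6.94 (SE 4.68) without passing. In each irradiated group 1 had a q, atp6v1aa, which was not DE. The part of ionocytes in the results was not tested.

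**Figure D1:**
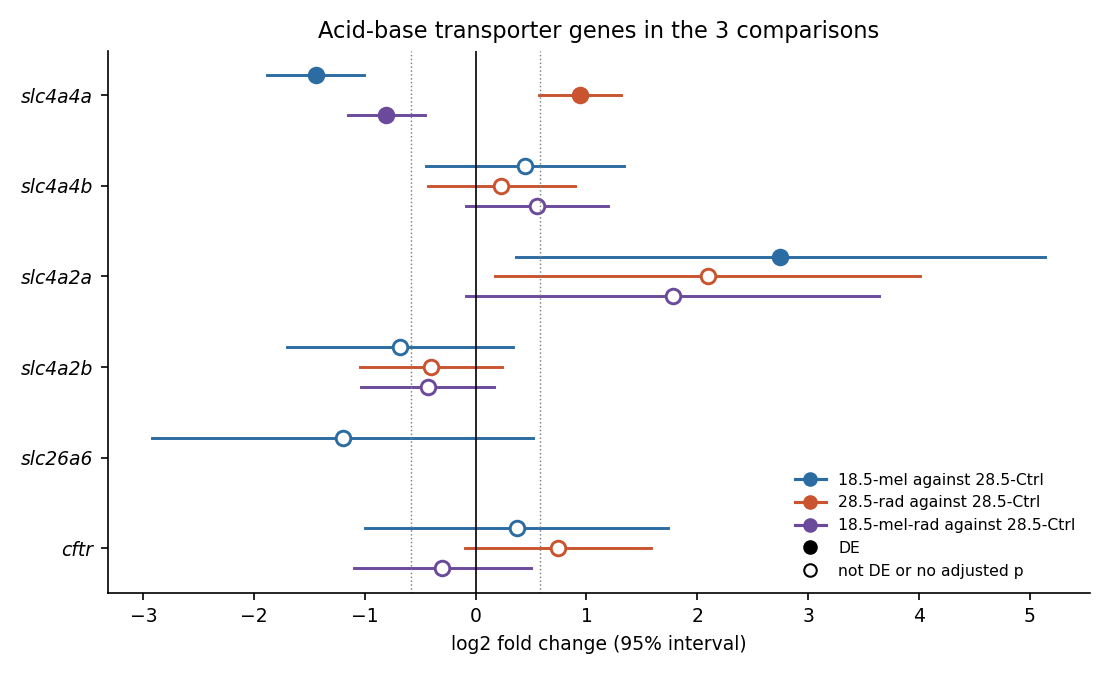
Log2 fold change of each gene against 28.5-Ctrl in the 3 comparisons, as deposited by the authors, with 95% normal intervals from the SE. Filled points are DE, open points are not DE or have no adjusted p, and dotted lines mark the 0.58 threshold in both directions. The slc4a4a points are at -1.45 in 18.5-mel, 0.94 in 28.5-rad and -0.81 in 18.5-mel-rad, while slc26a6 has a point for 18.5-mel only.

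The sodium bicarbonate cotransporter gene slc4a4a (ENSDARG00000013730) was the best read of the members, with 907 normalized counts as its mean in the table of 18.5-mel, 1696 in that of 28.5-rad and 1768 in that of 18.5-mel-rad. In 18.5-mel its log2 fold change was -1.45 (SE 0.22, DESeq2 q = 1.19e-09), which is 2.72-fold lower with a 95% interval from 2.02 to 3.68. In 28.5-rad it was 0.94 (SE 0.19, DESeq2 q = 0.000217), which is 1.92-fold higher with an interval from 1.48 to 2.49. In 18.5-mel-rad it was -0.81 (SE 0.18, DESeq2 q = 0.000298), or 1.75-fold lower with an interval from 1.37 to 2.22. It was therefore DE in every comparison, raised in the irradiated group at 28.5 °C and lowered in both groups at 18.5 °C.

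Well-read genes as a whole had lower estimates in 18.5-mel. The 500 genes nearest to slc4a4a in mean expression had a median log2 fold change of -0.55 in that table, so that slc4a4a lay 0.89 below it. In 28.5-rad the neighbours stood at -0.01 and in 18.5-mel-rad at -0.09, which leaves slc4a4a 0.96 above and 0.71 below them. Its direction was the same on either scale in all 3 comparisons. In the highest of 25 bins of mean expression the median was -0.68 in 18.5-mel, -0.17 in 28.5-rad and -0.34 in 18.5-mel-rad. Other well-read genes below are given without such a subtraction. No other gene overlaps slc4a4a in the RefSeq annotation of GRCz12tu, an assembly other than the GRCz11 build of the tables.

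**Figure D2:**
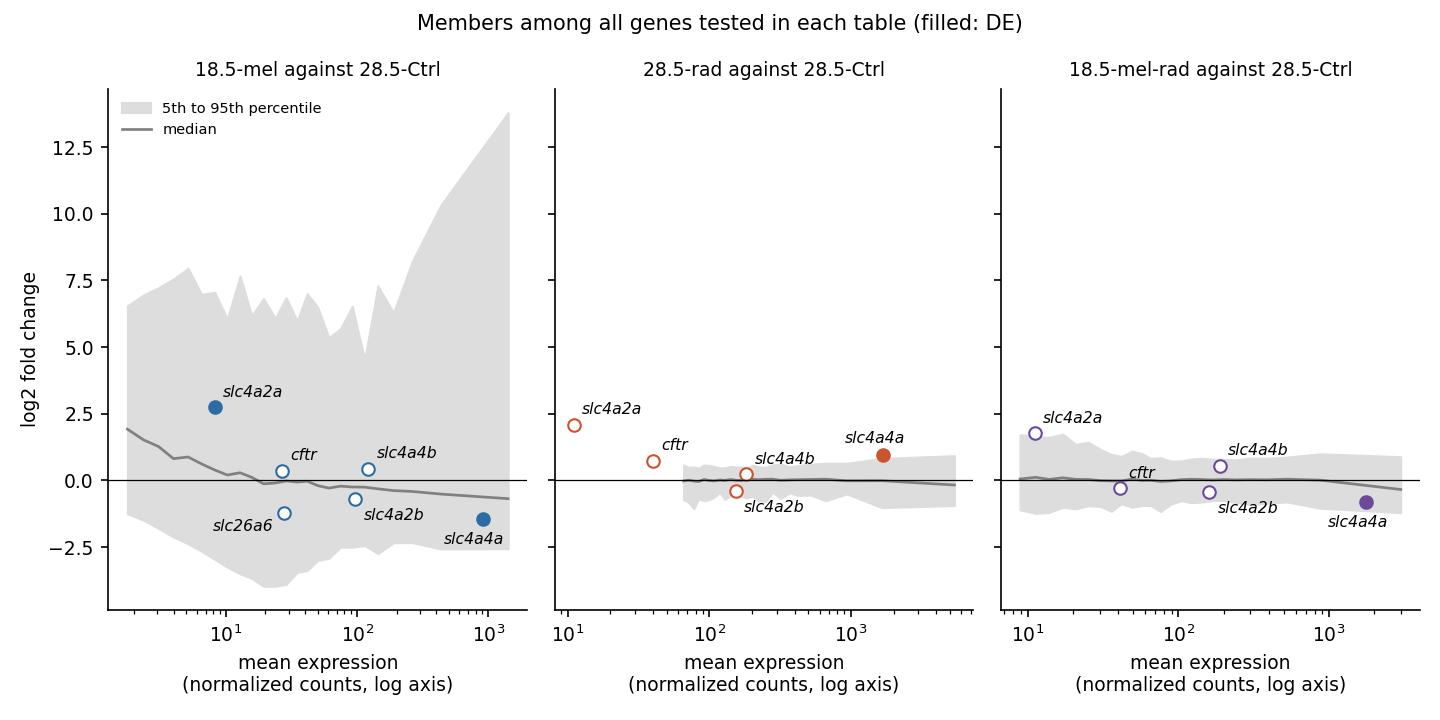
Log2 fold change of each member against mean expression in normalized counts (log axis) in the 3 tables, with the median (line) and the 5th to 95th percentile (band) of the genes with an adjusted p in 25 bins of mean expression. Filled points are DE. The bands of the irradiated tables are far narrower than that of 18.5-mel, and in 28.5-rad slc4a2a and cftr lie below the mean expression at which the table begins to give an adjusted p.

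Its paralog slc4a4b (ENSDARG00000044808), which encodes a second cotransporter of the same kind, was DE in none. Its log2 fold change was 0.45 (SE 0.46, DESeq2 q = 0.487) in 18.5-mel, 0.23 (SE 0.34, DESeq2 q = 0.907) in 28.5-rad and 0.55 (SE 0.33, DESeq2 q = 0.312) in 18.5-mel-rad. The 95% intervals of slc4a4b ran from -0.45 to 1.34, from -0.43 to 0.90 and from -0.08 to 1.19. The 95% intervals of slc4a4a and slc4a4b did not overlap in 18.5-mel or in 18.5-mel-rad. In 28.5-rad that of slc4a4a, from 0.57 to 1.32, overlapped that of slc4a4b. The paralogs differed by -1.89 in 18.5-mel, by 0.71 in 28.5-rad and by -1.36 in 18.5-mel-rad on the log2 scale, and these differences were not tested. The span of slc4a4b overlaps that of dck in RefSeq, and how reads of overlapping genes were counted is not given in the sources used here.

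The chloride bicarbonate exchanger gene slc4a2a (ENSDARG00000028173) had a positive estimate in every comparison from very few reads. In 18.5-mel its log2 fold change was 2.75 (SE 1.22, DESeq2 q = 0.0721), a DE call from a mean expression of 8.25 normalized counts. That mean allows at most 24 reads in the deeper 18.5-mel library or 6 in the shallower. In 28.5-rad it was 2.09 (SE 0.98) at a mean expression of 11.0, and no q was given. In 18.5-mel-rad it was 1.78 (SE 0.95, DESeq2 q = 0.254) at 11.1. The interval in 18.5-mel ran from 1.28-fold to 35.3-fold, so the size of that rise is poorly known. Genes near slc4a2a in mean expression had a median of 0.44 in 18.5-mel, and slc4a2a lay 2.31 above it.

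The paralog slc4a2b (ENSDARG00000052330) was better read, at 96.6 to 160 normalized counts, and passed in no comparison. Its estimates were negative throughout, at -0.69 (SE 0.52, DESeq2 q = 0.33) in 18.5-mel, -0.40 (SE 0.33, DESeq2 q = 0.779) in 28.5-rad and -0.43 (SE 0.31, DESeq2 q = 0.428) in 18.5-mel-rad. Every interval of slc4a2b included 0, and together they reached from -1.70 to 0.33. Changes of slc4a2b beyond a 1.26-fold rise were thus outside the interval in each comparison.

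The last exchanger was measured in 18.5-mel alone. The apical anion exchanger gene slc26a6 had a log2 fold change of -1.20 (SE 0.88, DESeq2 q = 0.308) at a mean expression of 27.7 normalized counts. Its interval ran from -2.92 to 0.52. The relative listed as slc26a6l (ENSDARG00000054127) had almost no reads, at a mean of 1.33 normalized counts in 18.5-mel, 0.218 in 28.5-rad and 0.28 in 18.5-mel-rad, and it has no q in any table.

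The chloride channel gene cftr (ENSDARG00000041107) was DE in none of the comparisons. Its log2 fold change was 0.37 (SE 0.70, DESeq2 q = 0.727) in 18.5-mel, 0.74 (SE 0.43, no q) in 28.5-rad and -0.30 (SE 0.41, DESeq2 q = 0.729) in 18.5-mel-rad. At a mean expression of 26.8 to 41.0 normalized counts the 95% intervals were wide, from -1.0 to 1.74, from -0.10 to 1.58 and from -1.10 to 0.50. That of 18.5-mel leaves room for a change of 1.5-fold in either direction. That of 28.5-rad leaves room for such a rise only, and that of 18.5-mel-rad for such a fall only.

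Counted over the members, 1 of 6 with a q was DE raised and 1 lowered in 18.5-mel, against 21.3% and 15.8% of all genes. In 28.5-rad 1 of 3 was raised and 0 lowered, against 1.34% and 0.599% of all genes. In 18.5-mel-rad 0 of 5 were raised and 1 lowered, against 6.06% and 5.68%. The median log2 fold change of the members with a q was -0.16 in 18.5-mel (6 members), 0.23 in 28.5-rad (3 members) and -0.30 in 18.5-mel-rad (5 members). The median of all genes tested was 0.01, 0.01 and 0.02. With so few members, and members chosen with these comparisons in view, nothing is read from these shares. Without slc4a2a, whose reads are few, 18.5-mel holds 1 DE member.

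The irradiated groups were then set against each other, as the change in 18.5-mel-rad minus that in 28.5-rad, with a two-sided normal test over 12684 genes and BH adjustment over all of them. Of these genes, 1.13% were higher in 18.5-mel-rad and 1.26% lower. For slc4a4a the difference was -1.75 (SE 0.26), which is 3.36-fold lower, with an interval from -2.26 to -1.24 and an adjusted p of 7.56e-08 from the DESeq2 estimates. It was the 1 member of 5 called. The same libraries of 28.5-Ctrl enter both comparisons, and the SE used here counts their spread in both, which makes it too large. The library that appears to be entered 2 times makes it too small, and these errors were not corrected together.

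The other members did not pass in that comparison. The difference of cftr was -1.04 (SE 0.59), with an interval from -2.20 to 0.12 and an adjusted p of 0.575 from the DESeq2 estimates. With the shared control variance taken off, the SE of cftr fell to 0.36 and its adjusted p to 0.0271, so the call for cftr turns on that choice. That SE assumes 4 separate 18.5-mel-rad libraries, so it would be too small with 1 entered 2 times. For slc4a4b the difference was 0.32 (SE 0.47), for slc4a2a -0.32 (SE 1.37) and for slc4a2b -0.03 (SE 0.45). The interval of slc4a2b, from -0.91 to 0.85, leaves room for a change of 1.5-fold in either direction.

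The groups at 18.5 °C were compared in the same way, as 18.5-mel-rad minus 18.5-mel, over 15366 genes, of which 12.1% were higher and 12.3% lower. For slc4a4a the difference was 0.64 (SE 0.28), with an interval from 0.08 to 1.2 and an adjusted p of 0.0993 from the DESeq2 estimates. This call was at the threshold and was lost, with an adjusted p of 0.116, once the SE of 18.5-mel-rad was widened for the library entered 2 times. The 2 tables come from separate fits, and the neighbours of slc4a4a in mean expression lay lower in 18.5-mel than in 18.5-mel-rad, as given above. Taken after subtracting those neighbours' medians, an alternative chosen after seeing the data, the difference was 0.18, below the 0.58 that a call needs, and that between the irradiated groups was -1.67. None of the other 4 members was called, and their differences ran from -0.97 for slc4a2a to 0.25 for slc4a2b.

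**Figure D3:**
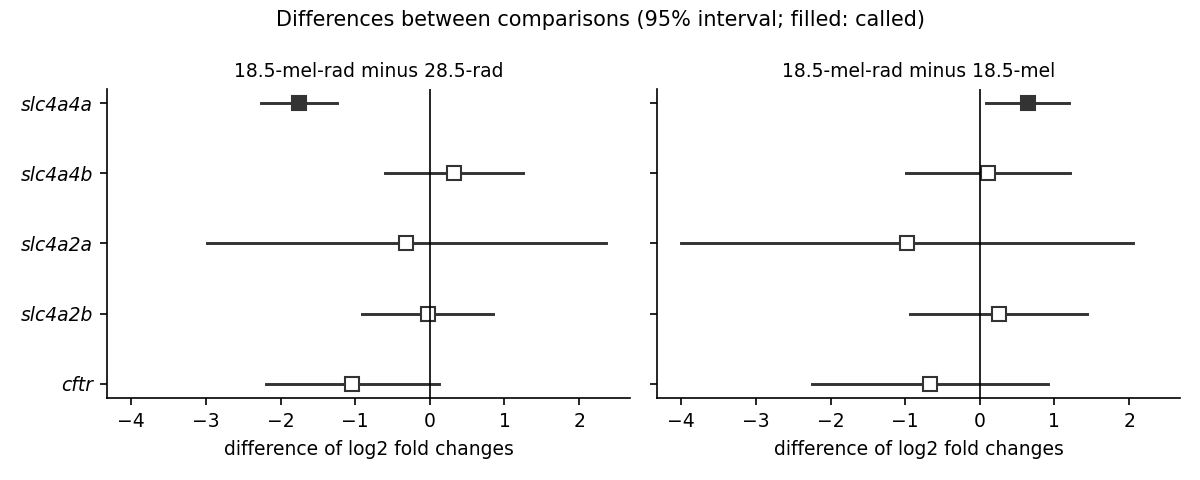
Difference of log2 fold changes for the 5 members in all 3 tables, 18.5-mel-rad minus 28.5-rad (left) and 18.5-mel-rad minus 18.5-mel (right), with 95% normal intervals. Filled squares are called at an adjusted p of at most 0.1 and an absolute difference of at least 0.58. The slc4a4a square lies at -1.75 on the left and at 0.64 on the right, and each other interval includes 0.

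The genes most like each member were sought among 6834 genes with a q in all tables, by Euclidean distance over the 3 log2 fold changes. Nearest to slc4a4a was mep1a.1, a subunit gene of the brush border protease meprin, at a distance of 0.41 with -1.25 in 18.5-mel, 0.87 in 28.5-rad and -0.45 in 18.5-mel-rad. Next was ckbb, a creatine kinase gene, at 0.43, with -1.13, 0.65 and -0.85. For cftr they were ssbp3a at 0.07 and tha1 at 0.21. For slc4a4b they were tarbp2 and zdhhc5a, both at 0.09, and for slc4a2b arhgef4 at 0.06 and rpl7a at 0.07. Nearest to the poorly read slc4a2a were slc6a19a.2, an amino acid transporter gene, at 0.62 and nr1d1, a clock gene, at 0.77. A q in 28.5-rad begins at a mean expression of 63.1, and slc4a2a and cftr lie below it, at 11.0 and 39.7. Genes read as little as these in 28.5-rad were not searched, so closer neighbours of slc4a2a may have been left out.

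Other genes of acid-base transport and fluid secretion were counted on 7 lists compiled from general knowledge, 106 genes in all. In 18.5-mel 17 of the 91 with a q were raised and 16 lowered, or 36.3% DE. In 28.5-rad 1 of 33 was raised and 1 lowered, or 6.06%. In 18.5-mel-rad 9 of 71 were raised and 3 lowered, or 16.9%. Over all genes 21.3% were raised and 15.8% lowered in 18.5-mel. The shares were 1.34% and 0.599% in 28.5-rad and 6.06% and 5.68% in 18.5-mel-rad. They apply to each count of list genes or markers below, and nothing is read from those counts. The list medians of -0.02, 0.16 and 0.30 lie beside 0.01, 0.01 and 0.02 for all genes tested.

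**Figure D4:**
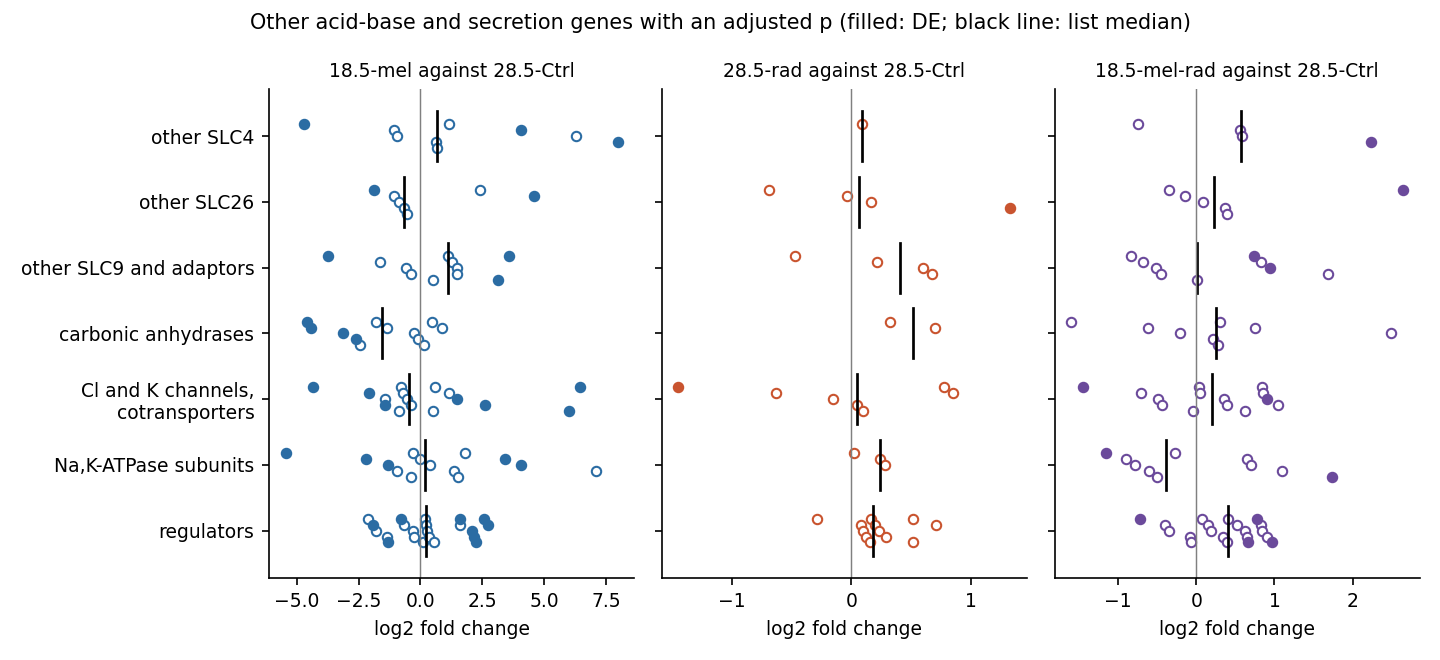
Log2 fold change of the genes with an adjusted p on the 7 lists of acid-base and secretion genes, in the 3 comparisons. Each point is a gene, filled where DE, the black line is the list median, and the horizontal scale differs between panels. Filled points are 33 of 91 in 18.5-mel, 2 of 33 in 28.5-rad and 12 of 71 in 18.5-mel-rad.

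The anion exchangers of the SLC26 family hold the 1 list gene that was raised in 28.5-rad. The gene slc26a3.2, a relative of the mammalian SLC26A3 that takes up chloride from the gut lumen in exchange for bicarbonate, was raised in 28.5-rad by 1.33 (SE 0.32, DESeq2 q = 0.00347) at a mean expression of 1654 normalized counts. It was at -0.67 (SE 0.35, DESeq2 q = 0.14) in 18.5-mel and -0.14 (SE 0.23, DESeq2 q = 0.784) in 18.5-mel-rad. The difference of slc26a3.2 between the irradiated groups was -1.47 (SE 0.39), with an adjusted p of 0.0163 from the DESeq2 estimates. Its neighbour in name slc26a3.1 was raised in 18.5-mel-rad by 2.65 (SE 0.97, DESeq2 q = 0.0591), and had 2.39 (SE 1.35, DESeq2 q = 0.173) in 18.5-mel and 2.17 (SE 1.01, no q) in 28.5-rad. In 18.5-mel the sulphate transporter gene slc26a1 was lowered by 1.86 (log2 fold change -1.86, SE 0.49, DESeq2 q = 0.000906), and slc26a4, which encodes pendrin, was raised by 4.60 (SE 0.97, DESeq2 q = 1.81e-05). Neither change was seen in 18.5-mel-rad, where slc26a1 was at 0.08 (SE 0.20, DESeq2 q = 0.865) and slc26a4 at -0.48 (SE 1.11, no q).

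Among the other SLC4 genes, 2 of 9 were raised and 1 lowered in 18.5-mel. They were slc4a5a at 7.96 (SE 1.71, DESeq2 q = 2.75e-05), the anion exchanger gene slc4a3 at 4.05 (SE 1.0, DESeq2 q = 0.000351) and the gene listed as SLC4A5 (ENSDARG00000104387) at -4.72 (SE 1.75, DESeq2 q = 0.0266). All were read little, at 11.7 to 25.0 normalized counts. The values in 18.5-mel-rad were 2.75 (SE 1.93) for slc4a5a and 0.69 (SE 0.83) for slc4a3, each without a q. SLC4A5 was not listed for either irradiated group. In 18.5-mel-rad slc4a1a, the red cell anion exchanger gene, was raised by 2.23 (SE 0.74, DESeq2 q = 0.0314), and the red cell list of 5 genes had 5 positive estimates there with 0 DE.

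Of 11 SLC9 genes and adaptors with a q in 18.5-mel, 2 were raised and 1 was lowered. The lowered one was chp1, for an adaptor of these exchangers, at -3.72 (SE 0.66, DESeq2 q = 2.04e-07), against 0.60 (SE 0.25, DESeq2 q = 0.305) in 28.5-rad and 0.00 (SE 0.23, DESeq2 q = 0.994) in 18.5-mel-rad. The raised ones, slc9a3.1 at 3.58 (SE 1.54, DESeq2 q = 0.0635) and slc9a5 at 3.14 (SE 1.05, DESeq2 q = 0.013), had mean expressions of 2.78 and 8.95 normalized counts. Bins of genes at 2.36 and 3.07 normalized counts had medians of 1.52 and 1.27 in 18.5-mel. In 18.5-mel-rad slc9a8 was raised by 0.95 (SE 0.20, DESeq2 q = 0.000174) and slc9a7, an exchanger of intracellular membranes, by 0.73 (SE 0.28, DESeq2 q = 0.0765). No gene of this list was DE in 28.5-rad, where 4 had a q.

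The carbonic anhydrase family includes the enzymes that make bicarbonate from carbon dioxide. Of its 12 genes with a q in 18.5-mel, 4 were lowered and 0 raised. Over all genes 15.8% were lowered and 21.3% raised there. The largest falls were those of the mitochondrial ca5a at -4.56 (SE 1.71, DESeq2 q = 0.0286), of cahz at -4.42 (SE 1.78, DESeq2 q = 0.0456) and of ca9 at -3.11 (SE 1.24, DESeq2 q = 0.042). The fourth was the membrane-anchored ca4b. None was DE in 28.5-rad (2 with a q) or in 18.5-mel-rad (8 with a q) by the authors' DESeq2 fit. However, ca9 was not listed for either irradiated group, and ca5a and cahz had no q in 28.5-rad. The values in 18.5-mel-rad were -1.60 (SE 0.66, DESeq2 q = 0.105) for ca5a, 0.75 (SE 0.67, DESeq2 q = 0.557) for cahz and 0.30 (SE 0.28, DESeq2 q = 0.585) for ca4b. Red cells also express cahz. Of the 4 red cell markers with a q in 18.5-mel, alas2, for an enzyme of haem synthesis, was raised by 7.39 and the haemoglobin gene hbaa1 was lowered with a log2 fold change of -4.30, and the median was 1.34. The part of red cells in the fall of cahz was not tested.

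Among channels and cotransporters, slc12a4, a potassium chloride cotransporter gene, was lowered in both irradiated groups. It was at -1.45 (SE 0.44, DESeq2 q = 0.0575) in 28.5-rad and -1.45 (SE 0.38, DESeq2 q = 0.00422) in 18.5-mel-rad, against -0.53 (SE 0.59, DESeq2 q = 0.527) in 18.5-mel, and the difference of slc12a4 between the irradiated groups was 0.00 (SE 0.58). The calcium-activated potassium channel gene kcnn4 was raised in 18.5-mel-rad by 0.91 (SE 0.37, DESeq2 q = 0.0937). In 18.5-mel 4 of 16 were raised and 3 lowered. The largest of these were slc12a10.2, which is also on the ionocyte list, at 6.43 (SE 1.98, DESeq2 q = 0.006), slc12a10.3 at 6.01 (SE 0.69, DESeq2 q = 1.18e-16) and BEST4, an epithelial anion channel gene, at -4.36 (SE 1.37, DESeq2 q = 0.0073). The values in 18.5-mel-rad were 1.39 (SE 2.49, no q) for slc12a10.2 and 1.05 (SE 0.93, DESeq2 q = 0.555) for slc12a10.3. In 18.5-mel slc12a10.2 was read at a mean of 5.18 normalized counts, where estimates lean upward. BEST4 was not listed for either irradiated group.

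The sodium pump drives most of these transporters. The gene atp1a1a.4, for a catalytic subunit of the pump and read at 3768 to 7194 normalized counts, was lowered in both groups at 18.5 °C. It was at -2.19 (SE 0.29, DESeq2 q = 1.04e-12) in 18.5-mel and -1.16 (SE 0.25, DESeq2 q = 0.000153) in 18.5-mel-rad, against 0.02 (SE 0.26, DESeq2 q = 0.993) in 28.5-rad. The difference of atp1a1a.4 between the irradiated groups was -1.18 (SE 0.36), with an adjusted p of 0.0617 from the DESeq2 estimates. The catalytic subunit gene atp1a1a.1, read at 2737 to 4461 normalized counts, was DE in none. It was at -0.29 (SE 0.23, DESeq2 q = 0.349) in 18.5-mel and -0.28 (SE 0.15, DESeq2 q = 0.267) in 18.5-mel-rad. The subunit gene atp1b1a was DE in 18.5-mel alone, at -1.32 (SE 0.28, DESeq2 q = 1.67e-05), against -0.50 (SE 0.20, DESeq2 q = 0.0992) in 18.5-mel-rad. Other subunit genes moved more from fewer reads in 18.5-mel, with atp1a1a.2 at -5.45 (SE 1.69, DESeq2 q = 0.0065), atp1b1b at 4.05 (SE 1.67, DESeq2 q = 0.0513) and atp1b2a at 3.43 (SE 0.74, DESeq2 q = 3.59e-05). Of these atp1b1b was read at a mean of 3.34 normalized counts, where estimates lean upward. In 18.5-mel-rad atp1a3b was raised by 1.73 (SE 0.57, DESeq2 q = 0.0282). The atp1a1a genes are close relatives, and how reads shared between them were counted is not given in the sources used here.

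Of the regulators of secretion, 6 of 22 were raised and 3 lowered in 18.5-mel, 0 of 12 were DE in 28.5-rad by the authors' DESeq2 fit, and 3 of 20 were raised and 1 lowered in 18.5-mel-rad. The gene ezra, for ezrin, a linker of apical membrane proteins to actin, was lowered in both groups at 18.5 °C. Its values were -0.77 (SE 0.30, DESeq2 q = 0.0358) in 18.5-mel and -0.72 (SE 0.21, DESeq2 q = 0.01) in 18.5-mel-rad, against 0.52 (SE 0.22, DESeq2 q = 0.323) in 28.5-rad. The bin of highest mean expression, which holds ezra, had a median of -0.68 in 18.5-mel and -0.34 in 18.5-mel-rad. In 18.5-mel ezra thus lay near the genes read as well as it. Between the irradiated groups ezra differed by -1.23 (SE 0.30, adjusted p = 0.00628 from the DESeq2 estimates). Its paralog ezrb went the other way, with 2.71 (SE 0.20, DESeq2 q = 1.19e-39) in 18.5-mel and 0.66 (SE 0.16, DESeq2 q = 0.00175) in 18.5-mel-rad.

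The others raised in 18.5-mel-rad were ahcyl1, whose mammalian protein IRBIT binds and stimulates SLC4A4, at 0.77 (SE 0.22, DESeq2 q = 0.00861), and prkacab, for a catalytic subunit of cAMP-dependent kinase, at 0.97 (SE 0.27, DESeq2 q = 0.0083). Their relatives on the list did not pass there, with ahcyl2b at -0.06, prkacaa at 0.15, prkacbb at 0.35 and prkacba at 0.85. In 18.5-mel ahcyl1 was at -0.27 (SE 0.35, DESeq2 q = 0.596) and prkacab at 0.24 (SE 0.49, DESeq2 q = 0.742). The kinase genes wnk2 at 2.55 (SE 0.88, DESeq2 q = 0.0155) and wnk1b at 2.25 (SE 0.91, DESeq2 q = 0.045) were raised in 18.5-mel, both at fewer than 15 normalized counts. Better read kinase genes of the list went both ways there. Raised were oxsr1b at 2.16 (SE 0.25) and wnk1a at 1.58 (SE 0.44). Lowered were oxsr1a at -1.93 (SE 0.50) and prkacbb at -1.32 (SE 0.52), while others were not DE.

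The enterocyte markers were counted beside slc4a4a. In 18.5-mel 0 of 11 enterocyte markers with a q were raised and 5 lowered, with a median of -0.63. In 28.5-rad 2 of 10 were raised and 0 lowered, with a median of 0.31, and the raised ones were anpepb at 1.38 (SE 0.25) and slc15a1b at 0.65 (SE 0.19). In 18.5-mel-rad 1 of 10 was raised, slc15a1b at 0.77 (SE 0.16), and 1 lowered, fabp2 at -1.15 (SE 0.28), with a median of -0.36. These medians had the sign of the slc4a4a estimate in each comparison, and most of the markers were not DE. The bin of highest mean expression, which holds most of these markers, had medians of -0.68 in 18.5-mel, -0.17 in 28.5-rad and -0.34 in 18.5-mel-rad. At 18.5 °C the enterocyte medians were thus close to those of well-read genes of any kind. Over the 16 pancreas genes the median was -0.66 in 18.5-mel, and over 15 it was -0.93 in 28.5-rad and -0.69 in 18.5-mel-rad. The part of enterocytes or of pancreas in the change of slc4a4a was not tested.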

How the data were processed

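Reads were checked with FastQC, trimmed with Cutadapt, aligned to GRCz11 with STAR, counted with HTSeq and compared in DESeq2 by the authors. Versions, strand setting and covariates are not given in the sources used here. The deposited log2 fold change and its SE (log2 scale), the deposited p-value and adjusted p-value, and the mean expression, a signal the authors averaged from normalized counts over the libraries of each fit, were taken as deposited. The Wald score deposited by the authors was used only to check columns. These are the authors' own comparisons, and per-sample values were not analysed here. No column held samples of another series. The adjusted p-value of the 18.5-mel table equals a BH adjustment of its genes, whereas those of the irradiated tables, which list fewer genes, differ from one by up to 0.00799.

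Genes were joined by Ensembl identifier, with 1 duplicate row dropped per irradiated table. Symbols came from the irradiated tables and otherwise from a names table, and 29230 genes of the 18.5-mel table had one. Differences between comparisons were tested by the normal test in Python 3.11.15 with SciPy 1.17.1. The code was also run on simulated estimates drawn independently for each comparison. That simulation held neither a shared control nor a library entered 2 times, so it does not bear on those errors. The members and lists were chosen with earlier results of these data known. The genes named are the members, slc26a6l, up to 3 genes per list and comparison with the largest change among those DE, and the 2 genes nearest to each member. Beside them, ca4b, atp1a1a.1, atp1b1a, oxsr1a, oxsr1b, wnk1a, prkacbb and the markers were named after their values were seen. Stricter and looser thresholds, other gene filters, centring and other variances were tried. No sequences are shown.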

Additional observations from a re-analysis of the deposited data

Results flagged for a closer look

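The effects of treatment on slc4a4a differed between groups by a direct test. The log2 fold change in 18.5-mel-rad minus that in 28.5-rad was -1.75 (SE 0.26), since the gene was higher than in 28.5-Ctrl in 28.5-rad and lower in 18.5-mel-rad. The change in 18.5-mel-rad minus that in 18.5-mel was 0.64 (SE 0.28), a fall smaller in the irradiated group, at the threshold of the test and lost under other settings given below. After subtracting from each value the median of the 500 genes of like mean expression it was 0.18, and the difference between the irradiated groups was -1.67. The members were chosen with these comparisons in view, and groups were not searched for single samples that stand apart, since no values per sample were analysed.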

How the results depend on the processing

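Each member, slc4a4a among them, kept its direction under each centring tried in every comparison with 28.5-Ctrl where it has an estimate. The other settings changed only thresholds, adjustment, filters or the SE, so they could not alter a direction. Members DE in 18.5-mel numbered 2, and 1 (slc4a4a) at q ≤ 0.05, at q ≤ 0.01 and with a mean expression of at least 10. With a fold change threshold of 1 on the log2 scale, 0 members were DE in 28.5-rad and 0 in 18.5-mel-rad, in place of 1 each, since slc4a4a lies below that size there. In the difference of the irradiated groups, taking off the shared control variance gave 2 members called, slc4a4a and cftr, in place of 1, and 2068 genes in all in place of 303. That setting assumed 4 separate 18.5-mel-rad libraries. In the difference of the groups at 18.5 °C, 0 members were called in place of 1 at an adjusted p of at most 0.05, with each comparison centred on its median and with the SE of 18.5-mel-rad widened, an alternative chosen after seeing the data. So was subtracting the median of 500 genes of like mean expression, which took the difference of slc4a4a at 18.5 °C from 0.64 to 0.18. Taking off the shared control variance was not tried at 18.5 °C. The list genes DE in 28.5-rad numbered 1 at q ≤ 0.05 in place of 2. No paired analysis was possible because the tables hold no values per sample, and for that reason leaving out each replicate in turn was not run. Depth limits slc4a2a, slc26a6 and cftr most.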
